A study of Mus musculus with 2 samples.

Results

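Mir221 and Mir222 are neighbouring microRNA genes on the mouse X chromosome, and their sense counts were examined here in 2 microRNA sequencing libraries of aged heart. Both were found by their GENCODE M21 symbols among 2202 microRNA genes, so that 2 of 2202 rows make up the cluster. The libraries came from heart tissue of female B6CASTF1/J mice of 18 to 20 months, the first-generation hybrid of C57BL/6J and CAST/EiJ. The labels give no treatment and no altered allele, number the libraries as biological replicates 1 and 2 with separate tissue records, and name 1 donor record for both. The labels do not say that 2 animals were used, so each SD and p-value below speaks only of the spread between these libraries, which may be technical in part. With 1 group there is no contrast between conditions. The questions were how strongly each gene of the cluster was counted, in what ratio, and how far the libraries differed in both.

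MicroRNAs are short RNAs cut from a hairpin precursor, and bases 2 to 8 of the mature strand, the seed, pair with target messenger RNAs. The miR-221/222 pair is known from blood vessels: in endothelial cells it restrains the receptor Kit, and in vascular smooth muscle it favours growth by lowering the cell cycle inhibitor Cdkn1b. Both genes are transcribed in one direction from a shared precursor. In mm10, Mir221 (ENSMUSG00000065422.1) lies on the minus strand of chromosome X from 19146294 to 19146388, and Mir222 (ENSMUSG00000065471.1) from 19146893 to 19146971. Mir222 is thus the upstream gene, and 504 bases separate the hairpins. No other M21 gene overlaps the 678 bases of the cluster. The nearest annotated gene, the noncoding transcript Gm14636, lies on the same strand and ends 10009 bases upstream.

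**Figure D1:**
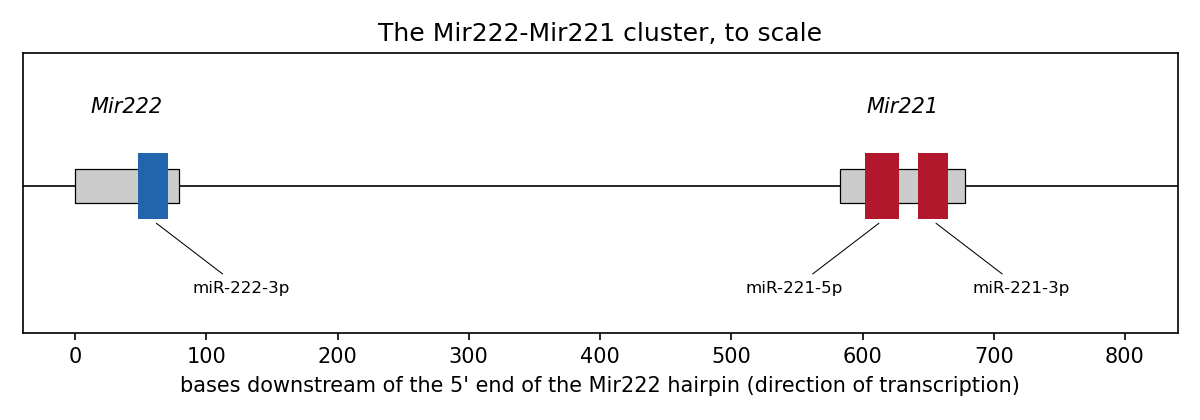
Map of the cluster drawn to scale. The horizontal axis is the distance in bases from the 5′ end of the Mir222 hairpin in the direction of transcription, grey boxes are hairpins, and coloured boxes are the mature arms listed in the RefSeq table. The hairpins are separated by 504 bases within a cluster of 678 bases.

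Both genes matched the RefSeq table of GRCm38.p6, the assembly also called mm10. The mature arms are shown, each with its own seed in capitals, because the seed shared by miR-221-3p and miR-222-3p ties the pair together. Their different tails decide whether a read can be assigned to 1 gene.
miR-221-3p: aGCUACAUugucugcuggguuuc
miR-222-3p: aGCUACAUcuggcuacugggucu
miR-221-5p: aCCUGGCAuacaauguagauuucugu
miR-1928: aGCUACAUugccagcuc
The 3p arms, cut from the 3′ side of the hairpin, are both 23 bases long and identical over their first 8 bases. Without gaps they match at 11 of 23 positions, and aligned with gaps at 19 of 24. Among 1738 mature sequences of the table, the seed GCUACAU occurs in 3, the third being miR-1928. The seed of miR-221-5p, from the other side of the hairpin, occurs in 1 of them.

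The hairpins are shown with the 3p arm in capitals, since the deposited counts are per hairpin and join both arms.
Mir221 hairpin: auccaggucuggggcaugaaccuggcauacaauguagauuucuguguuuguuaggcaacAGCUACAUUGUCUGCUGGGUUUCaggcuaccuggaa
Mir222 hairpin: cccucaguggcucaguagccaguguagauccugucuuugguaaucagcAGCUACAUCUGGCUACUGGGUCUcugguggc
The Mir221 hairpin has 95 bases and the Mir222 hairpin 79, with predicted folding energies of -42.8 and -40.7 kcal/mol. Aligned with gaps, they were identical at 62.5% of positions. The longest stretch common to both was 9 bases. Against the other 2201 microRNA genes of M21, on either strand, the longest shared stretch was 13 bases for Mir221 and 12 for Mir222. Each of the 3 mature arms occurred whole in 1 of 141767 M21 transcripts, its own. Places outside annotated transcripts were not searched. A read of a full listed arm thus had 1 annotated origin, which matters because reads mapping to several places entered no gene count.

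Mir221 was one of the more highly counted microRNA genes in these libraries, and Mir222 was counted far less. Levels are counts per 1000000 sense gene counts of a library (CPM). A gene counted as detected when both libraries held at least 10 counts of it, which 316 genes reached. Mir221 had 5674 counts in replicate 1 and 10638 in replicate 2, or 1677 CPM with a Wilson 95% interval of 1634 to 1721 and 2894 CPM with one of 2839 to 2949. Mir222 had 315 and 558 counts, or 93.1 CPM (83.4 to 104) and 152 CPM (139.7 to 165). Replicate 2 was the higher library for both genes, and neither gene's intervals overlapped between libraries. The means were 2285 ± 861 CPM (SD, n = 2) for Mir221 and 122 ± 41.5 CPM (SD, n = 2) for Mir222. By mean level Mir221 took place 42 among the detected genes (52 in replicate 1 and 38 in replicate 2) and Mir222 place 133 (135 and 121). Reads mapping to several places, 43.9% and 43.2% of replicates 1 and 2, entered no gene count. This can lower genes with close copies elsewhere, so these places need not be the order of abundance in the tissue. In whole tissue, fewer cells of a type and less RNA per cell cannot be told apart. Intervals cover counting error within a library only. Amplified reads without molecular identifiers are not independent molecules, so the intervals may be too narrow even for that.

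Together the genes made up 0.177% of sense gene counts in replicate 1, with a Wilson 95% interval of 0.173 to 0.182, against 0.305% in replicate 2 (0.299 to 0.310). Nearly all of it was Mir221, which gave 94.7% of the cluster's counts in replicate 1 and 95.0% in replicate 2. On the antisense strand Mir221 had 0 counts in both libraries, and Mir222 had 0 and 1, so that the counts of both genes were nearly the same with reads on either strand. As CPM of that column's smaller gene total they averaged 3038 and 163. The third bearer of the seed, Mir1928 on chromosome 1 (74206554 to 74206620, minus strand), had 0 counts in both libraries, which allows at most 0.887 and 0.816 CPM. Mir221 thus had the most counts of the 3 genes that carry this seed in the table.

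The ratio of the genes was nearly the same in both libraries, although the level was not. Replicate 1 had 18.0 counts of Mir221 per count of Mir222 (exact 95% interval 16.1 to 20.2), and replicate 2 had 19.1 (17.5 to 20.8). As Mir222 over Mir221, the ratio was 0.0555 (0.0494 to 0.0622) and 0.0525 (0.0481 to 0.0571), with a mean of 0.0540 ± 0.00217 (SD, n = 2). The intervals of the libraries overlapped. Per hairpin base, Mir221 exceeded Mir222 by 15.4 ± 0.618 times (SD, n = 2). The 3p arms are equal in length, so counts of these arms would need no such correction, but the files do not say which arm was counted. The ratio of Mir222 to Mir221 in replicate 2 was 0.945 times that in replicate 1 (exact 95% interval 0.818 to 1.09, or -0.29 to 0.13 on the log2 scale). A two-sided Fisher's exact test on these counts gave p = 0.444, which does not show that the ratios were equal; the interval bounds their difference.

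**Figure D2:**
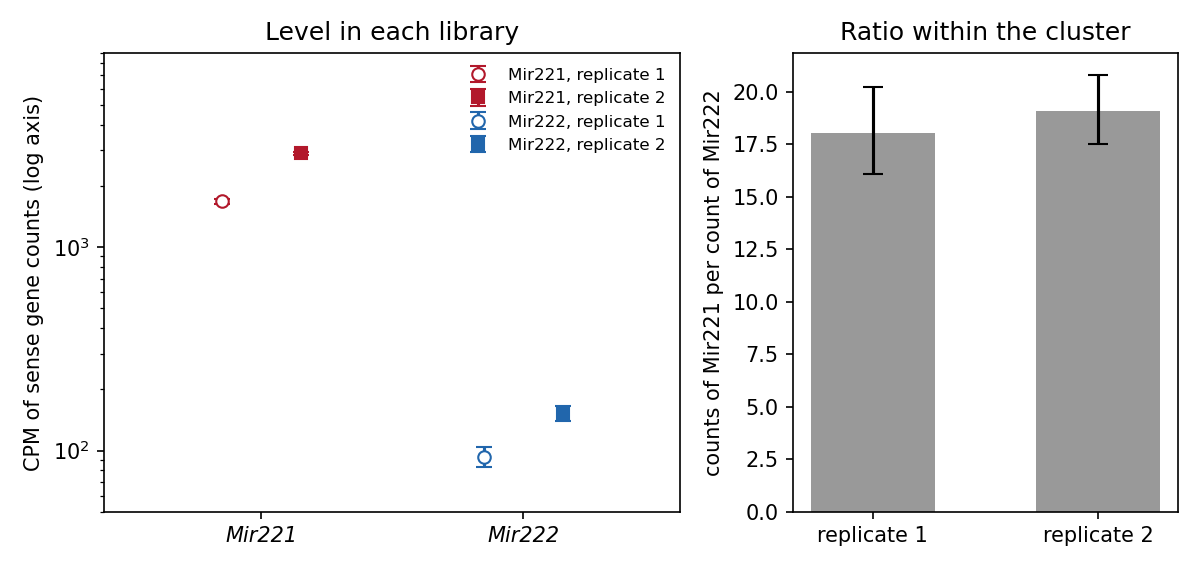
Left, level of Mir221 and Mir222 in CPM on a log axis, 1 point per library with its Wilson 95% interval (open circles replicate 1, filled squares replicate 2). Right, counts of Mir221 per count of Mir222 in each library, with bars from 0 and exact 95% intervals: both genes were higher in replicate 2, and the ratio bars stand at 18.0 and 19.1.

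Both genes were higher in replicate 2 by a similar factor. After scaling by the trimmed mean of M-values (TMM), Mir221 was 1.58-fold higher in replicate 2 (exact 95% interval 1.53 to 1.64; log2 ratio 0.66) and Mir222 was 1.50-fold higher (1.30 to 1.72; log2 ratio 0.58). An exact binomial test (two-sided) on each gene's counts, with Benjamini-Hochberg adjustment over 316 genes, gave an adjusted p = 7.20e-178 for Mir221 and 1.90e-08 for Mir222. The test sets these libraries against counting noise alone. By the same test 60.4% of all detected genes differed and 33.2% were higher in replicate 2. A call in either direction was thus the more common outcome, while a call higher in replicate 2 was not. The size of the difference lay inside the spread of all genes: 37.0% of detected genes had a larger absolute log2 ratio than Mir221 and 40.2% a larger one than Mir222. The median absolute log2 ratio was 0.45, with quartiles of 0.18 and 0.94. The median log2 ratio of all detected genes was 0.05, and scaling by library totals moved it to 0.18. Relative to that median, Mir221 stood at 0.61 and Mir222 at 0.53.

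**Figure D3:**
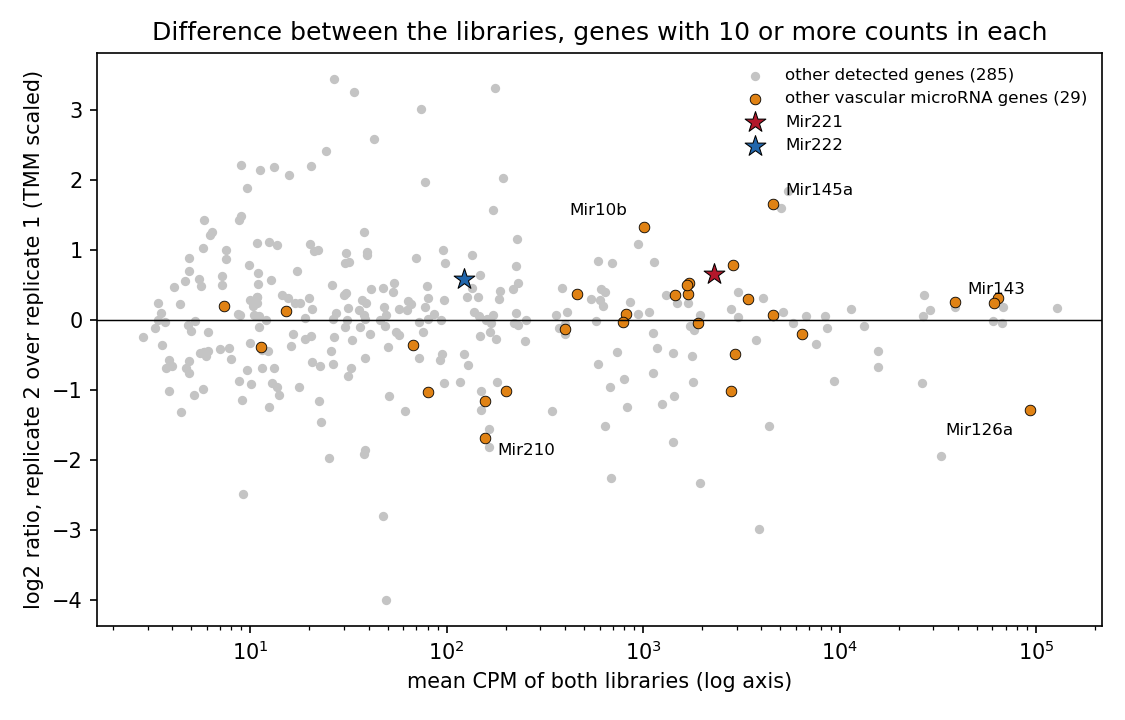
Log2 ratio of replicate 2 over replicate 1 after TMM scaling (vertical axis) against mean CPM (horizontal log axis), 1 point per detected gene. Mir221 and Mir222 (stars) lie at 0.66 and 0.58, between vascular microRNA genes (orange) that spread from Mir210 at -1.69 to Mir145a at 1.66.

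Most neighbouring microRNA genes differed between the libraries in their ratio, and Mir221 and Mir222 did not pass the same test. Detected microRNA genes on one strand whose starts lie within 2000 bases formed 83 pairs from 108 genes, some genes being in several pairs. In 51 of them the ratio within the pair differed between the libraries by Fisher's exact test at an adjusted p of 0.05, or 61.4%. The Mir221 and Mir222 pair was not among these (two-sided Fisher's exact test, adjusted p = 0.542 over 83 pairs). Its log2 ratio differed by 0.08 between libraries, the sixth smallest difference of 83, against a median of 0.64. The smallest was that of Mir382 and Mir485 (0.0065), and the largest that of Mir92-2 and Mir106a (3.21), another pair on chromosome X. Many pairs rest on few counts. Of the 42 pairs with 100 counts or more of each gene in each library, a limit chosen after seeing the data, 37 differed. The 5 that did not were Mir221 with Mir222, Mir411 with Mir379, Mir322 with Mir351, Mirlet7d with Mirlet7f-1 and Mirlet7a-1 with Mirlet7f-1, named after their values were seen. Whether a pair is called also depends on its depth. A pair called at a difference of 0.11 had 6165 counts or more of each gene, against 315 of Mir222 in replicate 1. The unequal level of the pair was less unusual by these counts: 18 of the 83 pairs were more unequal. Mir23b and Mir24-1 were widest at 834-fold, while the median pair differed by 6.66-fold and Mir221 and Mir222 by 18.5-fold. Lower genes of several more unequal pairs, among them Mir24-1, Mir24-2, Mir27a, Mirlet7f-1 and Mirlet7c-2, share 20 bases or more with a microRNA gene elsewhere. Reads mapping to several places entered no gene count, so the inequality of these pairs is uncertain. Mir221 and Mir222 have no such stretch.

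**Figure D4:**
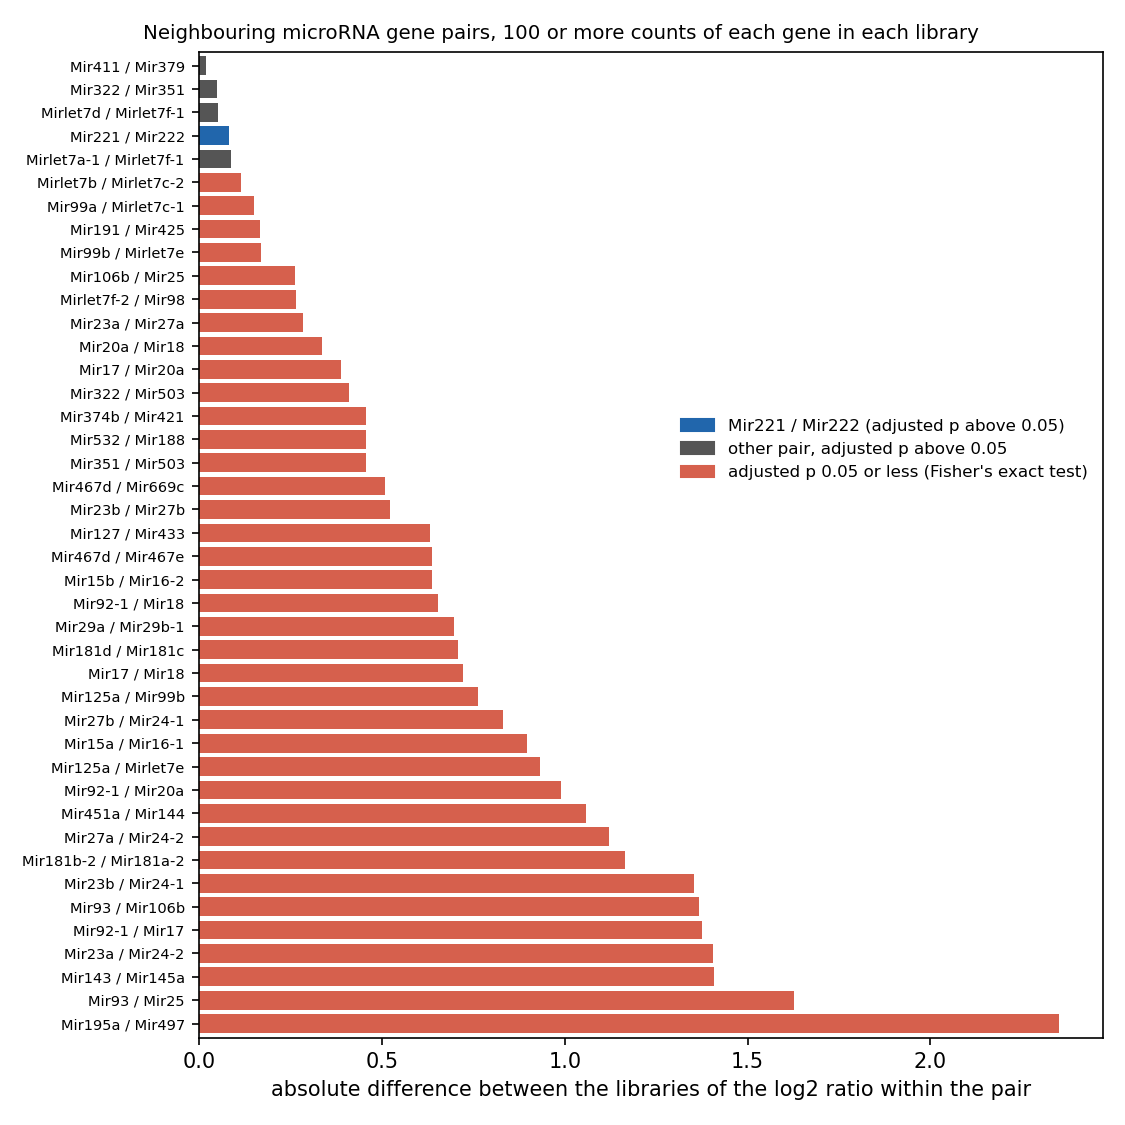
Absolute difference between the libraries of the log2 ratio within neighbouring pairs (horizontal axis), 1 bar per pair, for the 42 pairs with 100 counts or more of each gene in each library. Mir221 and Mir222 (blue, 0.08) have the fourth shortest bar, and the 37 pairs in red differed by Fisher's exact test.

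Set among 35 other microRNA genes known from blood vessels, Mir221 stood at place 12 of 37 by mean CPM (13 in replicate 1 and 10 in replicate 2) and Mir222 at place 26 (27 and 23). Mature microRNAs are close in length, so these levels were not divided by length. Just above Mir221 came Mir92-1 (2815 ± 1190 CPM, SD, n = 2), of the miR-17-92 cluster, and Mir21a (2879 ± 1241 CPM), a promoter of smooth muscle growth. Just below it came Mir27a (1898 ± 77.9 CPM) and Mir146 (1715 ± 544 CPM), a brake on inflammatory signalling. Each of these means lay within 1 SD of Mir221, so their order is not resolved. Around Mir222 stood Mir210 (156 ± 109 CPM), induced by low oxygen, and Mir24-1 (79.9 ± 34.5 CPM), the former within 1 SD of Mir222 and the latter just over it. Of the 35 listed genes, 13 share 20 bases or more with a microRNA gene elsewhere, which makes their counts uncertain; Mir92-1, Mir27a, Mir146, Mir24-1 and Mir23b are among them, and Mir221 and Mir222 have no such stretch. The highest of the list were Mir126a (93379 ± 50437 CPM), an endothelial microRNA, and Mir23b (64216 ± 13825 CPM).

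The vascular genes did not share one direction between the libraries. Of 35 listed genes 29 were detected, of which 14 were called higher in replicate 2 and 10 higher in replicate 1, with a median log2 ratio of 0.08 against 0.05 over all detected genes. Over all detected genes 33.2% were higher in replicate 2 and 27.2% in replicate 1, and the listed genes split 16 to 8 with library totals and 12 to 11 with DESeq2 size factors. Of the genes listed under smooth muscle, the 3 detected were higher in replicate 2, as Mir221 and Mir222 were. Mir145a had 2050 CPM in replicate 1 and 7078 in replicate 2 (log2 ratio 1.66), and Mir143 had 33589 and 43744 CPM (0.26). Mir21a, which is not among the smooth muscle markers used below, had 2002 and 3756 CPM (0.78). The fourth, Mir145b, had 1 and 16 counts. Mir126a, the only detected endothelial gene, was higher in replicate 1, with 129043 against 57714 CPM (log2 ratio -1.28). The other scalings kept this call, at -1.16 with library totals and -1.34 with DESeq2 size factors. It was lost with reads on either strand (adjusted p = 0.887 by the same exact test). That column sets aside reads that fit genes on both strands, so it does not test the same reads. Mir126b, on the opposite strand, had 4 counts and 1. Of 19 detected genes of angiogenesis and hypoxia, 7 were higher in replicate 2, led by Mir10b (log2 ratio 1.33), and 8 higher in replicate 1, led by Mir210 (-1.69), while 4 were not called. Of 6 detected genes of vascular inflammation and senescence, 4 were higher in replicate 2, among them Mir146 (0.54), and 1, the senescence-linked Mir34a (-0.48), was higher in replicate 1. Of these calls, those of Mir132, Mir155, Mir18 and Mir181b-2, all within a log2 ratio of -0.36 to 0.08, are lost under another scaling. Among the uncalled genes, Mir20a and Mir27a are called higher in replicate 2 with library totals, and Mir27a lower with DESeq2 size factors.

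Markers of several cell types moved between the libraries beside Mir221 and Mir222. White blood cell markers were all higher in replicate 2 (4 of 4: Mir150, Mir142, Mir223 and Mir155), their summed level being 7315 CPM in replicate 1 and 14264 CPM in replicate 2. Vascular smooth muscle markers (2 of 3 detected and called higher) summed to 35639 and 50826 CPM. Epithelial markers (5 of 7 called higher) summed to 201 and 725 CPM. The reverse held for endothelial markers (1 of 2 called, Mir126a), which summed to 129044 and 57715 CPM, for striated muscle markers (3 of 3), which summed to 5624 and 4831 CPM, and for erythroid markers (3 of 3), which summed to 4182 and 1938 CPM. Of the platelet markers, Mir223 was higher in replicate 2 and Mir126a in replicate 1. These counts stand beside 33.2% of all detected genes called higher in replicate 2 and 27.2% in replicate 1. The call of Mir155 (log2 ratio 0.07) is lost with DESeq2 size factors, upper quartile scaling or a minimum of 100 counts. That of Mir126a is lost with reads on either strand (log2 ratio -0.25), where reads that fit both strands' genes are set aside. Markers outside the vascular list were not run under these alternatives. No marker was at 0 in both libraries. The part of any of these cell types in the higher counts of Mir221 and Mir222 was not tested, so the vascular label comes from background knowledge and not from these libraries.

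Among all detected genes, the closest in level to Mir221 were Mir92-1 and Mir674 (2812 ± 379 CPM, SD, n = 2) above it, and Mir214 (1956 ± 1783 CPM) and Mirlet7c-2 (1954 ± 187 CPM) below it. Next to Mir222 stood Mir101b (128 ± 32.4 CPM) and Mir224 (127 ± 28.2 CPM) above it, and Mir374b (122 ± 21.4 CPM) and Mir186 (117 ± 42.7 CPM) below it. Mirlet7c-2 and Mir101b also share such a stretch with another gene. None of these 8 differed from its neighbour beyond the larger of their SDs. In their log2 ratio between the libraries, a likeness over only 2 libraries, the genes nearest to Mir221 with a mean of 100 counts or more were Mir187 (0.64), Mir222 itself (0.58) and Mir541 (0.77). Nearest to Mir222 were Mir337 (0.54), Mir146 (0.54) and Mir490 (0.53), with Mir221 in place 6.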

How the data were processed

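MicroRNA-seq was made from total RNA of 2 heart libraries. For each microRNA gene the authors deposited 3 columns of raw counts (either strand, sense, antisense), as read from the values, since there are no headers. Assembly mm10 and annotation GENCODE M21 are named in the deposited readme text; the aligner is not given in the sources used here, nor is the counter. The 4 rows that are no genes stayed out of totals: unmapped reads were 14.9% and 16.2% of replicates 1 and 2, multimapping 43.9% and 43.2%, featureless 5.07% and 5.75%, and ambiguous 0% in the sense column. Sense gene counts, used throughout, totalled 3383676 and 3676084, and 3 counts set the limit for a gene at 0. Variants of CAST/EiJ in the hairpins were not analysed here.

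All 2202 identifiers matched M21. TMM sizes came from edgeR 4.0.16 and alternative size factors from DESeq2 1.42.0 (R 4.3.3). Tests and intervals used scipy 1.17.1, numpy 2.4.6 and pandas 2.3.3 (Python 3.11.15), alignments Biopython 1.88, folding RNAfold 2.7.2 and plots matplotlib 3.10.9. Calls are at an adjusted p of 0.05. Tested on simulated data with Poisson noise (300 genes), the library comparison recovered 94.4% of 90 genes shifted 2-fold and 100% of 97 shifted 4-fold, and it called 0.885% of 113 left as they were. Fisher's exact test at the depth of Mir221 and Mir222, unadjusted, called 6% of 200 simulated pairs without a shift and 100% of 200 with a log2 shift of 0.5. Members, lists and the rule for named genes were chosen with earlier results of these data known. The rule names both members, vascular genes at 10 CPM or more, the nearest genes in level and in log2 ratio, seed relatives and the extreme pairs. Alternatives were other scalings, minimum counts, strands, denominators, thinning and each library left out.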

Additional observations from a re-analysis of the deposited data

How the results depend on the processing

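Both members kept their direction and call in all 8 alternatives each. The log2 ratio of Mir221 ran from 0.61 to 0.79 and that of Mir222 from 0.53 to 0.71, over other scalings, minimum counts, the other strand column and thinning. Levels depend on the denominator by construction: with reads on either strand Mir221 averaged 3038 CPM, Mir222 163 CPM and the cluster 0.320% of the counts, per 1000000 of all reads Mir221 averaged 807 and Mir222 43.3, with a cluster share of 0.0850%, and per 1000000 of all reads except unmapped they averaged 957 and 51.3, with a share of 0.101%. With 1 library left out, Mir221 stood at 1677 or 2894 CPM, Mir222 at 93.1 or 152 CPM, the share at 0.177% or 0.305%, and the ratio of Mir222 to Mir221 at 0.0525 or 0.0555. The log2 difference of this ratio between libraries stayed within its interval, at -0.08 as reported, -0.08 with reads on either strand and -0.09 after thinning. Calls over all genes numbered 132 to 201 against 191 as reported, but the number of genes tested changed with the setting. They were 132 of 181 (72.9%) at 100 counts or more and 201 of 708 (28.4%) at 1 count or more in either library. As reported they were 191 of 316 (60.4%). Vascular calls were 20 to 24, of 26 to 35 genes tested, against 24 of 29 as reported. The split of higher in replicate 2 to higher in replicate 1 was 105 to 86 over all genes as reported, 128 to 70 with library totals and 93 to 94 with DESeq2 size factors, and among vascular genes 14 to 10, 16 to 8 and 12 to 11. Among 39 other named genes, 284 of 306 alternatives kept direction and call. Small differences turned for Mir132 (0.0024 with library totals), Mir20a (0.10 with library totals and 0.0024 at 5 counts or more) and Mir27a (0.084 with library totals). With library totals, the exact binomial test called Mir20a (adjusted p = 0.018) and Mir27a (adjusted p = 0.0016) higher in replicate 2. Mir27a was instead called lower in replicate 2 with DESeq2 size factors (log2 ratio -0.094), upper quartile scaling (-0.076) and 100 counts or more (-0.083). The cause was not tested. Mir126a is no longer called with reads on either strand (log2 ratio -0.25), where reads that fit both strands' genes are set aside. Depth limits Mir222 most, at 315 counts in replicate 1. No paired analysis was possible because there is 1 group.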

Other observations

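Of 142 microRNA genes on chromosome X, 31 besides Mir221 and Mir222 were detected. Mir221 had the fourth highest mean level among those detected on this chromosome, and Mir222 stood at place 14. The highest was Mirlet7f-2, of the let-7 family, at 7622 ± 833 CPM (SD, n = 2). Mir221 gave 6.84% of all chromosome X sense counts in replicate 1 and 10.6% in replicate 2. By the exact binomial test, 14 of the 31 were higher in replicate 2 and 6 in replicate 1, with a median log2 ratio of 0.12, against 33.2% and 27.2% of all detected genes and a median of 0.05. The log2 ratios ran from -1.01 for Mir92-2 to 2.20 for Mir106a.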
